A study of Mus musculus with 4 samples.

Results

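Transforming growth factor beta (TGF-beta) signalling was followed through 9 genes in regenerating mouse liver: the ligands Tgfb1, Tgfb2 and Tgfb3, the receptors Tgfbr1 and Tgfbr2, the latency proteins Ltbp1 and Ltbp2, and the early targets Id1 and Smad7. Every probe set whose only gene symbol in the platform annotation was 1 of these names was taken, which gave 20 of 45101 probe sets and 9 of 18193 named genes. Expression had been measured on 4 single-colour Affymetrix arrays, 2 for livers of mice given EGFP-expressing cells (the control, a green fluorescent protein) and 2 for livers of mice given OGFRL1-expressing cells. Both groups were nude mice of the BALB/c nu/nu strain, without a thymus and so without mature T cells, dosed 23 times with carbon tetrachloride at 0.25 ml/kg body weight, a liver toxin that leads to fibrosis when given repeatedly. Each mouse then received 1000000 human bone marrow mesenchymal stem cells through the spleen, partial hepatectomy on day 21, and liver sampling on day 8 after that operation. The age and sex of the mice are not given in the labels. Separate animals are not named for the 2 arrays of either group, so p-values measure only the spread between arrays, part of which may be technical. The design asks how the regenerating liver differs between livers that received OGFRL1 cells and those that received EGFP cells. The probe sets are for mouse transcripts and the transplanted cells were human, so transcripts of the transplanted cells were not measured separately.

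TGF-beta ligands are secreted in a latent form, bound to their own propeptide and, through it, to latent TGF-beta binding proteins (LTBPs) that anchor the complex in the extracellular matrix. Once released, the ligand binds the type II receptor TGFBR2, which activates the type I receptor TGFBR1, and SMAD proteins carry the signal to the nucleus. In liver the pathway is known for activating stellate cells into matrix-producing myofibroblasts and for restraining hepatocyte division.

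None of the 9 genes passed the threshold. In 8 of them both OGFRL1 arrays were above both EGFP arrays, and Tgfb1 had overlapping groups. The 9 genes were chosen with earlier results of these data known, so counts over them are descriptions. Values are MAS5 signals, a linear intensity per probe set, and differences are OGFRL1 minus EGFP on the log2(signal + 3.51) scale, which understates the change of dim genes. Each gene was tested through its brightest probe set with limma across 11942 genes, with a Benjamini-Hochberg adjusted p threshold of 0.05. The mean of that probe set over all 4 arrays had to be at least 11.6. Tgfb3 met this through its OGFRL1 arrays (group means 10.87 EGFP and 18.36 OGFRL1). Over all genes tested 61 passed (0.511%), 43 of them higher in OGFRL1 livers (0.36%), 55.6% had a log2 difference above 0, and 27.0% had both OGFRL1 arrays above both EGFP arrays. At an unadjusted p under 0.05, 5 of the 9 genes were higher (Id1, Ltbp1, Ltbp2, Tgfb2 and Tgfbr2), against 9.01% of all genes. As the mean over probe sets this count was 3. OGFRL1 2 was the highest array for 8 of the 9 genes. The median log2 difference was 0.64 over the 9 genes and 0.04 over all genes tested. The former was 0.39 without EGFP 2, 0.52 without OGFRL1 2 and 0.46 as the mean over probe sets. An exact 2-sided permutation test of 2 arrays against 2 cannot give a p below 0.333, so single genes were read from the limma fit only.

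**Figure D1:**
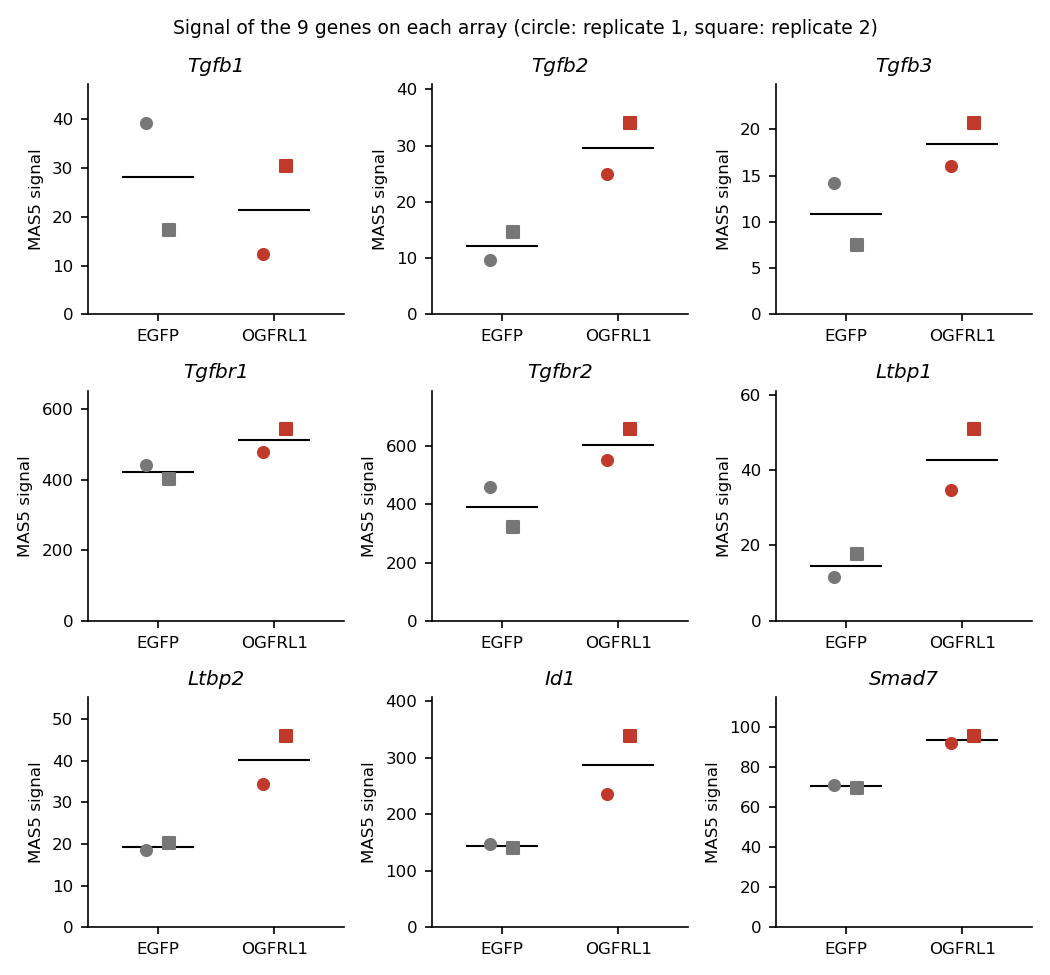
MAS5 signal (vertical axis, linear, from 0) of the brightest probe set of each of the 9 genes in the EGFP and OGFRL1 groups. Circles are replicate 1, squares replicate 2 and horizontal lines group means of 2 arrays. Both OGFRL1 points lie above both EGFP points in 8 panels, and the groups overlap for Tgfb1.

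The tissue label was met by hepatocyte transcripts, with albumin (Alb) at signals of 7041 to 16107 across the arrays. All 8 hepatocyte markers were lower in OGFRL1 livers (median log2 difference -0.47, 0 past the threshold), as were all 4 Cre spike-in probe sets (mean -0.43) and all 14 for BioB, BioC and BioD (mean -0.32). Plg, another hepatocyte product, was at -0.55, and at -0.12 after quantile normalization. The part of array scaling in the lower hepatocyte signals was not tested. Of the 9 genes 8 were higher and 1, Tgfb1, was lower (log2 difference -0.36 ± 0.50). Summed signals of 14 stellate cell and myofibroblast markers were 5750 and 5040 on EGFP 1 and 2, and 6338 and 7602 on OGFRL1 1 and 2. Of these markers 11 were higher and 3 lower (median 0.80, 0 past the threshold, 0.46 without OGFRL1 2 and 0.23 as the mean over probe sets). Lox, counted in the 11, passed the minimum signal through its OGFRL1 arrays (group means 10.5 EGFP and 21.45 OGFRL1). The 12 macrophage markers summed to 11120 and 4865 in the EGFP group and to 6141 and 10290 in the OGFRL1 group, and the 10 endothelial markers to 1861 and 1762 against 1622 and 1721. Cycling markers summed to 1477 and 1056 against 3591 and 4347, and 4 of the 7 tested passed the threshold as higher (Rrm2, Birc5, Mcm6 and Mcm5). In whole liver RNA, fewer cells of a type and less RNA per cell cannot be told apart. The part of these markers, and of the lower spike-in signals, in the values below was not tested.

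Among the ligands, Tgfb2 had about a doubled signal in OGFRL1 livers on 2 of its 4 probe sets, and Tgfb3 was higher with an interval that included 0. Tgfb1 was lower, by less than its error on the brighter probe set and by about its error on the dimmer. Tgfb1, the isoform best known in liver fibrosis, had signals of 39.2 and 17.2 on EGFP 1 and 2, and 12.4 and 30.4 on OGFRL1 1 and 2. The highest and the lowest array thus belonged to different groups, and each group held 1 high and 1 low array. The log2 difference was -0.36 ± 0.50 (SE, n = 2 arrays per group), with a 95% interval of -1.55 to 0.83 and a limma adjusted p of 0.786. Its sign depended on single arrays, with 0.16 without EGFP 1, 0.19 without OGFRL1 1, -0.88 without EGFP 2 and -0.91 without OGFRL1 2. A dimmer Tgfb1 probe set gave 15.5 and 19.1 against 13.0 and 13.3, a log2 difference of -0.32 ± 0.31 with both OGFRL1 arrays below both EGFP arrays. On that probe set EGFP 2 was the higher control array, so the order of the EGFP arrays was not shared between the 2 probe sets.

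The order of the 2 arrays within each group seen for the brighter Tgfb1 probe set was also seen in most macrophage markers. Of 11 tested macrophage markers, 10 had EGFP 1 above EGFP 2 and 10 had OGFRL1 2 above OGFRL1 1, where 52.6% and 53.8% of all genes tested did. Among the 14 stellate cell and myofibroblast markers 8 and 11 did, so the order in the OGFRL1 group was not particular to macrophage markers. Markers named here were chosen after their values were seen. The macrophage surface receptor Adgre1 had 507 and 149 on the EGFP arrays and 154 and 276 on the OGFRL1 arrays, and the lysozyme Lyz2 had 4533 and 1400 against 2108 and 3747. Gpnmb did not share the order on the EGFP arrays (174 and 189), nor Marco that on the OGFRL1 arrays (15.2 and 8.7). Trem2 (1.04 ± 0.30) and Gpnmb (0.59 ± 0.18) had both OGFRL1 arrays above both EGFP arrays, and Marco (-0.56 ± 0.36) had both below. Between the groups 7 of the 11 markers were higher and 4 lower, with a median of 0.16 and 0 past the threshold. This median was -0.41 without EGFP 2, -0.25 without OGFRL1 2, and 0.54 and 0.51 without EGFP 1 and OGFRL1 1. Among all genes tested, those with the pattern nearest to Tgfb1, by Euclidean distance between centred log2 values over the 4 arrays, were Ms4a6c (distance 0.12), Psmb8 (0.13) and Fyb (0.15). Psmb8 encodes a subunit of the immunoproteasome and Fyb an adaptor protein of haematopoietic cells. Ms4a6c had 282 and 122 against 101 and 205, with EGFP 1 and OGFRL1 2 the higher array of their groups, as for Tgfb1. Nearness over 4 arrays is a description only.

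**Figure D2:**
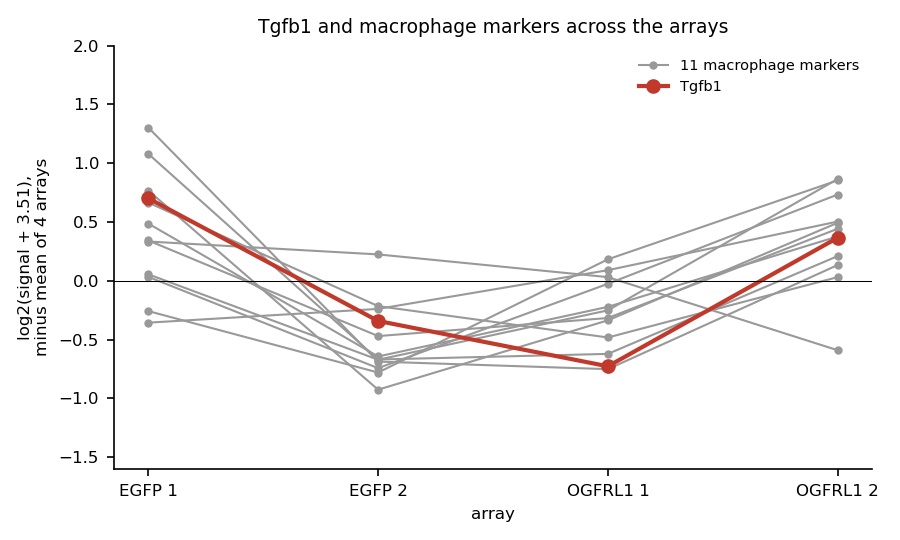
Log2(signal + 3.51) minus the mean of the 4 arrays (vertical axis) for Tgfb1 (red) and the 11 tested macrophage markers (grey) on each array, 1 line per gene. Tgfb1 and 10 of the markers were higher on EGFP 1 than on EGFP 2, and Tgfb1 and 10 of them were higher on OGFRL1 2 than on OGFRL1 1.

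Tgfb2, the isoform known from development and epithelia, had signals of 9.7 and 14.6 on the EGFP arrays and 24.9 and 34.0 on the OGFRL1 arrays. The groups did not overlap, and their log2 difference was 1.08 ± 0.33 (95% interval 0.29 to 1.87, limma adjusted p = 0.203). A further probe set gave 6.9 and 9.4 against 19.6 and 20.2, a log2 difference of 1.02 ± 0.33. The next gave 13.4 and 11.3 against 16.6 and 22.4, a smaller difference of 0.53 ± 0.32. These 3 probe sets were designed from the same transcript entry, so they share a source and are not independent. A probe set from another entry had a mean signal of 6.55, below the minimum of 11.6 set for testing, and overlapping groups with a log2 difference of -0.17. The mean over all 4 probe sets gave 0.62. All Tgfb2 signals were low, with the brightest probe set at the 59.2 percentile of mean signal over all probe sets. Detection calls are not given in the sources used here, so whether such signals lie above background was not assessed.

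Tgfb3, the remaining ligand, had 14.2 and 7.5 on the EGFP arrays and 16.02 and 20.69 on the OGFRL1 arrays. The groups were apart by less than the spread between the EGFP arrays. On the log2 scale this came to 0.64 ± 0.38 (95% interval -0.28 to 1.56, adjusted p = 0.494), and it ranged from 0.30 without EGFP 2 to 0.98 without EGFP 1 and was 0.39 with 4 times the pseudocount.

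Of the receptors, Tgfbr2 showed the larger difference and Tgfbr1 a small one, on bright probe sets at the 92.8 and 92.4 percentile of mean signal. Tgfbr2, the ligand-binding receptor kinase, had 459 and 324 on the EGFP arrays and 553 and 657 on the OGFRL1 arrays. Both OGFRL1 arrays were above both EGFP arrays, and EGFP 2 was the lowest. Its log2 difference was 0.64 ± 0.20 (95% interval 0.16 to 1.12, limma adjusted p = 0.209). It was 0.39 without EGFP 2 and 0.89 without EGFP 1, the highest of the alternatives listed in the processing. The mean over its 3 probe sets gave 0.23. Both other probe sets were below the minimum signal, the dimmer with 4.4 and 4.1 against 2.0 and 2.6 (-0.42) and the other with overlapping groups (0.46).

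Tgfbr1, the signal-transducing kinase, had 442 and 403 on the EGFP arrays and 480 and 543 on the OGFRL1 arrays. The arrays did not overlap, but the gap between the groups was about the size of the gap between the EGFP arrays. For Tgfbr1 the log2 difference was 0.27 ± 0.14 (95% interval -0.07 to 0.61, adjusted p = 0.43). The 2 other Tgfbr1 probe sets had mean signals of 6.7 and 3.31, below the minimum, with log2 differences of 0.33 and 0.22.

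The latency proteins had the largest and the fourth largest log2 difference of the 9 genes, from low signals. Ltbp1, which tethers latent TGF-beta to the matrix, had 11.6 and 17.7 on the EGFP arrays and 34.7 and 50.8 on the OGFRL1 arrays. The lowest OGFRL1 array was above the highest EGFP array by more than the spread within either group. The log2 difference was 1.35 ± 0.32 (95% interval 0.58 to 2.12, limma adjusted p = 0.127). Over the arrays left out it ranged from 1.09 to 1.6. Both other Ltbp1 probe sets were among the dimmest on the array, at the 9.8 and 2.0 percentile, with differences of 0.12 and -0.09, so the mean over probe sets gave 0.46. The genes nearest to Ltbp1 in pattern over the 4 arrays were Niban3 (distance 0.15), the matrix protein gene Spon1 (0.16) and Nacc1 (0.17). Niban3 passed the minimum signal through its OGFRL1 arrays, with 7.5 and 11.3 against 21.5 and 31.0. Spon1 had 20.4 and 27.1 against 50.5 and 70.3.

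Ltbp2, a matrix protein of the same family that is not thought to bind the latent ligand, had 18.5 and 20.2 on the EGFP arrays and 34.5 and 46.0 on the OGFRL1 arrays. Both EGFP arrays were close together and both OGFRL1 arrays were higher. This gave a log2 difference of 0.92 ± 0.27 (95% interval 0.28 to 1.57, limma adjusted p = 0.184), which lay between 0.69 and 1.11 over the alternatives. It has 1 probe set on the array.

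Upstream sequence was available for 6 of the 9 genes in a RefSeq promoter table (GRCm38.p6), 8 windows in all. The 250 bases before the start are shown for the 3 genes with a log2 difference of about 1 that the table holds, Tgfb2 and both latency proteins, as they were higher on the same arrays. Windows were searched on both strands for SMAD-binding letters: CAGAC (the SMAD box), GTCTAGAC (its palindrome), GGCGCC and GGAGCC (GC-rich forms). Capitals mark a match, which reads GTCTG or GGCTCC where it lies on the other strand.
Tgfb2 (chr1:186705990-186706239, minus strand): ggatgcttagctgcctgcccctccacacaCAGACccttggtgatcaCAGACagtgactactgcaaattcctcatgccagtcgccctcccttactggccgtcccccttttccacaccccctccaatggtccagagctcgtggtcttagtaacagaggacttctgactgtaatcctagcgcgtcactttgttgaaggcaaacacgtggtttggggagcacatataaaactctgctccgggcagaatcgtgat
Ltbp1, upstream start (chr17:75005279-75005528, plus strand): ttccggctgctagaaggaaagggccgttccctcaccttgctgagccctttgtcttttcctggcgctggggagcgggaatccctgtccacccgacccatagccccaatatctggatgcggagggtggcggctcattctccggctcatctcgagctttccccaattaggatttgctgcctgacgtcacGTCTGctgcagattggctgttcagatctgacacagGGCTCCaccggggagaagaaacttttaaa
Ltbp2 (chr12:84876492-84876741, minus strand): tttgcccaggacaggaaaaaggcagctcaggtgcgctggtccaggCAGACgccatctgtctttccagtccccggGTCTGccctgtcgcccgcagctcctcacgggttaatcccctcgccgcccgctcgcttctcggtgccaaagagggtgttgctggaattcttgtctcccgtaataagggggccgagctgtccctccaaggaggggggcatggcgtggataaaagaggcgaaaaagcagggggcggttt

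CAGAC was found 2 times in the Tgfb2 window, 1 time in the upstream Ltbp1 window and 2 times in the Ltbp2 window. It is a common sequence, held by 42.2% of the 32851 windows of the same length in the table. Of all 8 windows 6 held it, those of Tgfb2, Tgfbr2, Ltbp2, both of Ltbp1 and 1 of Tgfbr1. GGAGCC, held by 26.0% of all windows, was in 4, those of Tgfb1, Tgfbr2, 1 of Ltbp1 and 1 of Tgfbr1. GTCTAGAC, held by 0.167% of all windows, was in none of the 8, and GGCGCC (9.59%) was in 1, a Tgfbr1 window. A match describes letters in a window and is not a measured binding site.

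Of the early targets, Id1 had about 1.94 times the signal in OGFRL1 livers and Smad7 about 1.31 times, both fitted folds. Id1, a helix-loop-helix inhibitor that responds within hours to TGF-beta and to bone morphogenetic proteins (BMPs), had 148 and 140 on the EGFP arrays and 236 and 338 on the OGFRL1 arrays. The EGFP arrays were close together, and both OGFRL1 arrays were above them. The gap between the groups was larger than that between the EGFP arrays and smaller than that between the OGFRL1 arrays. For Id1 the log2 difference was 0.96 ± 0.20 (95% interval 0.47 to 1.44, limma adjusted p = 0.1), the smallest p of the 9 genes, at rank 302 among all genes tested. Over the arrays left out this difference ranged from 0.7 to 1.21. The genes nearest to Id1 in pattern were the pantetheinase Vnn1 (distance 0.07), Hand2, a transcription factor of stellate cells (0.11), and Itgbl1 (0.12). Hand2 had 63.4 and 57.6 against 97.4 and 132.2, and is among the stellate cell markers summed above.

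Smad7, the inhibitory SMAD that is induced by the pathway and feeds back on the receptors, had 71.2 and 69.7 on the EGFP arrays and 91.8 and 95.6 on the OGFRL1 arrays. A second Smad7 probe set gave 27.7 and 27.8 against 39.0 and 38.9. On both probe sets the arrays of a group were nearly equal and the groups did not overlap. Smad7 had a log2 difference of 0.39 ± 0.17 on the first (95% interval -0.02 to 0.80, limma adjusted p = 0.344) and 0.44 ± 0.23 on the second. The interval of the fit is wider than the spread of these 4 arrays alone because limma draws each gene's variance towards that of genes of similar signal.

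Over the 13 probe sets past the minimum signal, in a limma fit of 20238 probe sets, 0 passed the threshold, against 0.336% of all probe sets. At an unadjusted p under 0.05 there were 6, all higher, against 8.37% of all probe sets. In 11 of the 13 both OGFRL1 arrays were above both EGFP arrays, against 25.9% of all probe sets, and the 2 Tgfb1 probe sets made up the rest. The minimum was set on the mean of all 4 arrays. A Tgfb2 probe set counted in the 6 and the 11 passed it through its OGFRL1 arrays (group means 8.14 EGFP and 19.91 OGFRL1). So did the Tgfb3 probe set, counted in the 11 (10.87 and 18.36). Of the 7 probe sets below the minimum, 1 had both OGFRL1 arrays above, 2 had both below and 4 overlapped. Probe sets of 1 gene share a target and are not replicates.

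**Figure D3:**
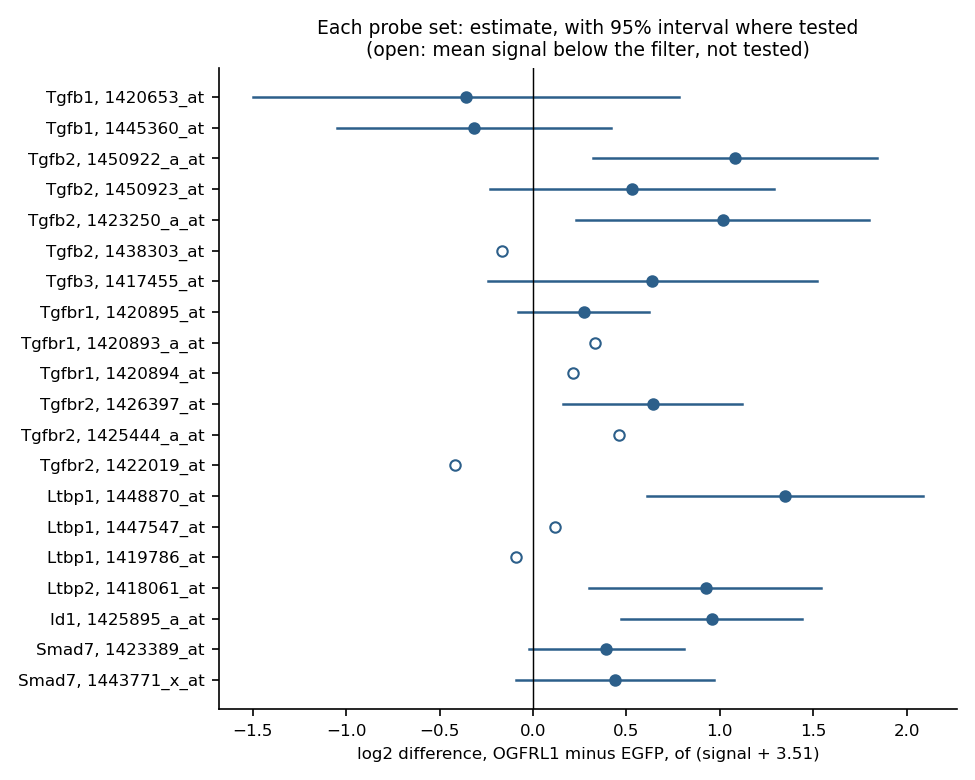
Log2 difference, OGFRL1 minus EGFP (horizontal axis), of all 20 probe sets of the 9 genes. Filled points carry the 95% interval of the probe set fit, and open points are the 7 probe sets below the minimum signal, which were not tested. The intervals of 6 probe sets lie above 0, those of Tgfb2 (2 of them), Tgfbr2, Ltbp1, Ltbp2 and Id1.

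Of 21 other genes of latency and activation 15 were tested and 0 passed the threshold, with 11 log2 differences above 0 and 4 below (median 0.40, or 0.21 without OGFRL1 2). Thbs1 and Mmp9, counted in the 11, passed the minimum signal through their OGFRL1 arrays. Their group means were 10.39 and 11.08 for EGFP and 18.19 and 13.04 for OGFRL1. Itgav, the integrin chain shared by the receptors that release TGF-beta from latency, had 612 and 530 against 784 and 829 (0.50 ± 0.14, limma adjusted p = 0.173), and 0.08 when its probe sets were averaged. Tgm2, a transglutaminase that crosslinks the latent complex to matrix, had 2204 and 1970 against 2820 and 2799 (0.43 ± 0.13, adjusted p = 0.209). Emilin1, which limits processing of the TGF-beta precursor, was at 0.44 ± 0.17 and 0.27 without EGFP 2. Ltbp3, a latency protein that does bind the ligand, was at 0.41 ± 0.18 and 0.27 without EGFP 1. Plg, the precursor of the ligand-releasing protease plasmin and a hepatocyte product, was at -0.55 ± 0.16 and at -0.12 after quantile normalization. Over the arrays left out, Itgav ranged from 0.40 to 0.60, Tgm2 from 0.35 to 0.51 and Plg from -0.70 to -0.40.

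Regulators at the receptor and the SMAD proteins themselves differed little. Of 17 receptor-level regulators, all tested, 11 were higher, 6 were lower and 0 passed, with a median of 0.09 (-0.02 without OGFRL1 2). Bambi, a decoy receptor, had 38.2 and 47.3 against 47.1 and 65.7 (0.36 ± 0.25, limma adjusted p = 0.554), with a range of 0.14 to 0.59 over the arrays left out. Strap, a receptor-associated inhibitor, had 584 and 577 against 653 and 658 (0.17 ± 0.13). Tgfbrap1, Zfyve9 (the SMAD anchor SARA) and the ubiquitin ligase Smurf1 were at -0.26 ± 0.17, -0.27 ± 0.20 and -0.38 ± 0.29. Leaving out single arrays moved them to between -0.42 and -0.10, -0.45 and -0.09, and -0.65 and -0.115, while as means over probe sets Tgfbrap1 turned to 0.12 and Smurf1 was at -0.085. Of 17 SMADs and their partners 15 were tested, 12 were higher, 3 were lower and 0 passed, with a median of 0.18 that was -0.001 without OGFRL1 2. Smad2, a transducer of TGF-beta signals, was at 0.38 ± 0.19 and Smad1, a transducer of BMP signals, at 0.26 ± 0.14, while as means over probe sets they were at 0.10 and -0.06. Ppm1a, a SMAD phosphatase, was at -0.31 ± 0.13 and at 0.002 as that mean. Sp1, a transcription factor that works with SMADs, was at 0.21 ± 0.15 (0.09 without EGFP 1), and the corepressor Tgif1 at 0.31 ± 0.27 (-0.04 without EGFP 2). Smad3 and Smad4, the other canonical transducers, were chosen after their values were seen and had 0.08 ± 0.17 and 0.03 ± 0.13.

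**Figure D4:**
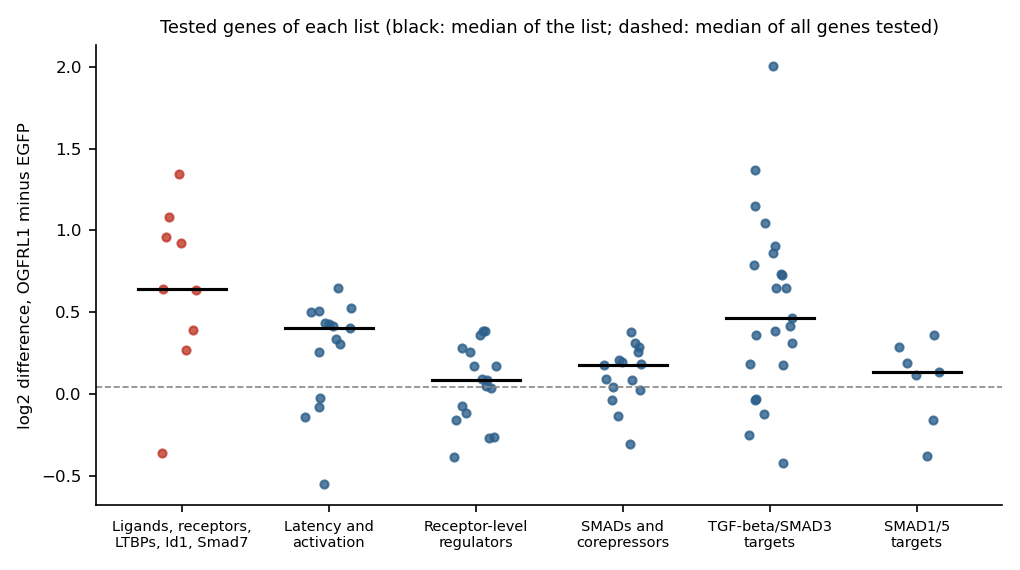
Log2 difference, OGFRL1 minus EGFP (vertical axis), of the tested genes in each list, 1 point per gene, with the list's median as a black line and the median of all genes tested (0.04) as a dashed line. The medians are 0.64 for the 9 genes, 0.40, 0.09 and 0.18 for the latency, receptor and SMAD lists, 0.47 for TGF-beta/SMAD3 targets and 0.14 for SMAD1/5 targets.

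Of 25 known TGF-beta and SMAD3 targets 23 were tested and 0 passed the threshold, with 18 log2 differences above 0 and 5 below (median 0.47, or 0.27 without EGFP 2). In 12 both OGFRL1 arrays were above both EGFP arrays, against 27.0% of all genes tested, and 9 had an unadjusted p under 0.05, all higher, against 9.01%. Thbs1, counted in the 12, passed the minimum signal through its OGFRL1 arrays. Col1a1, which encodes a collagen I chain, had 26.8 and 42.1 against 119.6 and 176.9 (2.002 ± 0.285, limma adjusted p = 0.0503). Ccn2, a matricellular growth factor, had 110 and 118 against 221 and 259 (1.05 ± 0.16, adjusted p = 0.0554), with the groups apart by more than the spread within either. The myofibroblast actin Acta2, with 76.8 and 107.2 against 213 and 198, was at 1.15 ± 0.20, and at 0.41 when its probe sets were averaged. The intermediate filament gene Vim was at 0.90 ± 0.16 and the actin-binding Tagln at 1.37 ± 0.28 (adjusted p = 0.0684 and 0.1). Col1a1 passed with median scaling, 4 times the pseudocount and the replicate block (limma adjusted p = 0.0477, 0.0474 and 0.0257). It did not pass with quantile normalization, a floor for the pseudocount or the mean over probe sets (limma adjusted p = 0.0622, 0.0519 and 0.0804). Nor did it pass with no filter, the stricter filter or no intensity trend (limma adjusted p = 0.107, 0.0594 and 0.151). Over the arrays left out, Col1a1 ranged from 1.71 to 2.30 and Ccn2 from 0.93 to 1.16. Acta2 ranged from 0.92 to 1.38, Vim from 0.78 to 1.03 and Tagln from 1.02 to 1.71.

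The stellate cell list holds 5 of the 25 targets. These 5 (Col1a1, Vim, Acta2, Tagln and Col3a1) had a median of 1.15 and all had an unadjusted p under 0.05, where 9.01% of all genes tested were higher at that level. The 18 other tested targets had a median of 0.37, and 13 had a difference above 0, against 55.6% of all genes. Of these 18, 4 had an unadjusted p under 0.05 and 7 had both OGFRL1 arrays above both EGFP arrays, against 9.01% and 27.0% of all genes. The difference between both parts of the list was not tested. Among the 7, Ccn2 is described above and the others are named after their values were seen. These were Snai2, a transcription factor of mesenchymal cells (0.73 ± 0.21), and the collagen I gene Col1a2 (0.86 ± 0.28). The rest were Tgfbi (0.42 ± 0.14), Postn (0.36 ± 0.16), Tgfb1i1 (0.47 ± 0.27) and Thbs1 (0.65 ± 0.38). Thbs1 passed the minimum signal through its OGFRL1 arrays (group means 10.39 EGFP and 18.19 OGFRL1). Col1a2 is not on the stellate cell list, which holds Col1a1. Feedback and immediate targets with overlapping groups were also chosen after their values were seen. Skil, a SMAD corepressor induced as feedback, had 320 and 277 against 293 and 390 (0.18 ± 0.18), and Pmepa1, another feedback gene, had 83.0 and 50.1 against 70.5 and 103.3 (0.385 ± 0.298). Klf10, a TGF-beta-inducible zinc finger gene, had 122 and 123 against 111 and 130 (-0.03 ± 0.17), and Junb was at -0.25 ± 0.26.

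Apart from Id1, tested targets of SMAD1 and SMAD5, the branch that BMPs use and that also drives Id1, did not separate the groups. Id1 is described above and is not on this list, while Bambi and Smad6 are also on the receptor and SMAD lists. Of 8 listed 7 were tested, 5 were higher and 2 lower, 0 passed, and in 0 did the groups fail to overlap, where 47.5% of all genes tested had groups apart (median 0.14, -0.12 without OGFRL1 2). At an unadjusted p under 0.05 there were also 0. Hamp, the iron hormone hepcidin and the main BMP target of hepatocytes, had 5097 and 6876 against 5934 and 6958 (0.12 ± 0.19, limma adjusted p = 0.821, and 0.47 after quantile normalization). Id3 had 816 and 513 against 476 and 704 (-0.16 ± 0.27), with the sign turned without EGFP 1 or OGFRL1 1. Id4 was at 0.19 ± 0.26 (0.02 without OGFRL1 2 and 0.36 without OGFRL1 1) and the inhibitory Smad6 at 0.285 ± 0.320 (-0.19 without OGFRL1 2 and 0.755 without OGFRL1 1). Id2, chosen after its values were seen, had 1294 and 1908 against 1443 and 2064 (0.135 ± 0.245). The difference between Id1 and these paralogs was not tested.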

How the data were processed

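RNA of regenerating liver was measured on 4 arrays, 2 per group, from 100 ng of total RNA each, per the labels. The deposited values are MAS5 signal intensities, per the submitters' processing notes, and the MAS5 version, scanner and detection calls are not given in the sources used here. Without the extreme 2% at either end, the mean signal was 100 on every array. Of 45101 probe sets, 34945 had 1 gene symbol in the platform annotation, 932 several and 9160 none, beside 64 controls, and 34741 had an identifier in a RefSeq table. Signals plus 3.51 (the 25th percentile) were log2-transformed, and genes were taken through their brightest probe set where its mean was at least 11.6, the median. The fit used limma 3.58.1 in R 4.3.3 (lmFit, eBayes with an intensity trend, 2-sided), with 2 residual and 4.48 prior degrees of freedom, and was tested on simulated data. A second fit took all 20238 probe sets with 1 symbol past that minimum. Python 3.11.15 and matplotlib 3.10.9 made tables and figures. Precision is limited by the number of arrays.

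The 9 genes and all lists were chosen with earlier results of these data known, so counts over them are descriptions. All 9 genes are named, then up to 5 genes a pathway list (those past the threshold, then by absolute moderated t), and the 3 genes nearest in pattern to Tgfb1, Ltbp1 and Id1. The replicate numbers are not said to mark a shared animal or day. Alternatives were quantile normalization, median scaling, a floor for the pseudocount, a pseudocount 4 times as large, no filter, a filter 4 times stricter, the mean over probe sets, no intensity trend, the replicate block, and each array left out.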

Additional observations from a re-analysis of the deposited data

How the results depend on the processing

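Over all genes, the 61 calls became 4 after quantile normalization, 94 with 4 times the pseudocount, 21 with the stricter filter, 13 with the mean over probe sets, and 0 both without a filter and without an intensity trend (2179 and 1653 genes at an unadjusted p under 0.05 in limma). Leaving out 1 array gave 0 to 856 calls, 0 to 2 of the 9 genes and 0 to 1 of their probe sets. Under the alternatives that kept all 4 arrays and did not cross the replicate numbers, 0 of the 9 genes passed. With the replicate block 59 genes passed, and 0 of the 9. Deviations of same-numbered arrays correlated at -0.28, a single value that cannot show whether the numbers pair the arrays. The crossed pairing, chosen after seeing the data, called 934 genes, 3 of the 9 genes and 3 of their probe sets. Of the 9 genes, Tgfb1 changed sign, from -0.91 to 0.19 over the arrays left out. As the mean over probe sets, Ppm1a was at 0.002, Smad1 at -0.059 and Tgfbrap1 at 0.12. Over the arrays left out, Hamp ranged from -0.10 to 0.33, Id3 from -0.49 to 0.17, Tgif1 from -0.043 to 0.67 and Smad6 from -0.19 to 0.755. The median of the SMAD list ranged from -0.001 to 0.26 and that of macrophage markers from -0.41 to 0.54. The cause of these changes was not tested. Where leaving out an array left 1 in a group, that array was assumed to vary like the others. Scaling moved the median over all genes by less than 0.1. Single bright genes moved more with quantile normalization, Plg from -0.55 to -0.12 and Hamp from 0.12 to 0.47. Dim probe sets, with no detection calls, limit the ligands and latency proteins most.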

Other observations

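Platelets store latent TGF-beta, and Pf4, their platelet factor, had 98.7 and 104 on the EGFP arrays and 136 and 163 on the OGFRL1 arrays (log2 difference 0.54 ± 0.17, limma adjusted p = 0.211). The groups did not overlap for Pf4, while Itga2b, an integrin chain of platelets, had 28.5 and 39.4 against 29.8 and 29.5. Of 6 platelet markers 3 were tested and 0 passed. Ppbp, the remaining tested marker, had 4.1 and 22.6 against 7.6 and 49.1 (0.78 ± 0.86), with overlapping groups. Of 8 T cell markers 6 were on the array and 1, Cd8a, was past the minimum signal. The 6 summed to 44.8 and 60.6 on the EGFP arrays and to 34.95 and 26.9 on the OGFRL1 arrays. Of 8 cholangiocyte markers 5 were tested and 0 passed, and Prom1, a surface protein of progenitors, had 223 and 108 against 720 and 510 (1.94 ± 0.34, adjusted p = 0.0692). The 4 others did not follow it, with Krt7 at 0.56 ± 0.54, Krt19 at 0.30 ± 0.32, Sox9 at -0.15 ± 0.345 and Epcam, with both OGFRL1 arrays below both EGFP arrays, at -0.21 ± 0.22.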
